A study of Mus musculus with 12 samples.

Results

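The 10 genes described here encode subunits of phosphoinositide 3-kinase (PI3K) and 2 regulators of it, and they were taken by symbol from the gene table: Pik3ca, Pik3cb, Pik3cd, Pik3cg, Pik3r1, Pik3r2, Pik3r5, Pik3c2g, Pik3ip1 and Irs2. All 10 had a row among the 55471 genes counted, and all 10 passed the filter on low counts, which left 17197 genes. RNA was sequenced from 12 lines of Ba/F3, a mouse pro-B cell line that lives on interleukin-3 (IL-3) unless an oncogene replaces it. The MSCV group held 4 lines with the empty retroviral vector, grown in 0.5 ng/ml murine IL-3. The BCR-ABL1 group and the SFPQ-ABL1 group held 4 lines each that the respective fusion of the ABL1 tyrosine kinase had transformed, grown with no IL-3. All lines were otherwise untreated, and the labels describe the lines of a group as biologically independent. In both comparisons with MSCV the fusion and the loss of IL-3 go together and cannot be told apart, and both use the same 4 MSCV lines. Only the comparison of SFPQ-ABL1 with BCR-ABL1 sets lines grown alike against each other.

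PI3K enzymes phosphorylate inositol lipids of the membrane. Class I enzymes pair a p110 catalytic subunit with a regulatory subunit and make PIP3, which recruits AKT and other proteins with lipid-binding domains and so carries signals from cytokine receptors and oncogenic tyrosine kinases, ABL1 fusions among them. The p110 delta and gamma forms are typical of blood cells, whereas the alpha and beta forms are found in most tissues. Class II enzymes make other inositol lipids, adaptors such as IRS proteins bring class I enzymes to receptors, and phosphatases such as SHIP1 act on PIP3.

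Gene totals ran from 59355018 to 80616227 counts per library, so 1 CPM, a count scaled to library size, stood for 59.4 to 80.6 counts. Taken by group, the exons checked in the genes joined in the fusions went with the labels, while 2 lines stood apart. Abl1 exon 9 was at 0.0454 to 0.0529 CPM in MSCV lines, 9.23 to 20.9 in BCR-ABL1 lines and 4.36 to 26.8 in SFPQ-ABL1 lines. SFPQ-ABL1 line 2 was the lowest of its group for that exon, and Sfpq exon 9 was 4.39 CPM there against 14.5 to 20.02 in the other SFPQ-ABL1 lines. Bcr exon 1 was at 0.0661 to 0.151 CPM in MSCV, 1.33 to 2.64 in BCR-ABL1 and 0.0744 to 0.304 in SFPQ-ABL1 lines. The highest of the SFPQ-ABL1 lines for it was line 2. BCR-ABL1 line 4 had the highest Sfpq exon 9 of its group, 3.60 CPM against 1.53 to 1.98 in the other BCR-ABL1 lines. What lies behind these values was not tested. Results that change without these 2 lines are given with and without them. Of 12 pro-B markers only Cd79a and Cd79b passed 1 CPM in a line, and Il7r was at 0 in every line. The summed pro-B markers were 130 to 152 CPM in MSCV, 49.1 to 71.9 in BCR-ABL1 and 85.1 to 98.7 in SFPQ-ABL1 lines.

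With BCR-ABL1, one PI3K gene rose and 3 fell against MSCV. Pik3cg, which encodes the p110 gamma catalytic subunit, rose 2.42-fold. Pik3c2g, which encodes the class II gamma enzyme, fell by 3.78 on the log2 scale (13.7-fold lower), the inhibitor gene Pik3ip1 was 3.30-fold lower, and Pik3r1, the gene of the p85 alpha regulatory subunit, was 1.24-fold lower. A gene was called at an adjusted p under 0.05 in edgeR's quasi-likelihood test over all 17197 genes. That makes 4 of 10 called, beside 32.1% of all genes (15.8% higher and 16.3% lower), and the lines of both groups did not overlap for 3 of 10, beside 31.6% of all genes. With SFPQ-ABL1, only the adaptor gene Irs2 was called against MSCV, 4.63-fold higher, beside 1.79% of all genes (0.814% higher and 0.977% lower). The lines did not overlap for Irs2, Pik3c2g and Pik3ip1, 3 of 10 beside 11.2% of all genes. Between the fusions, Pik3c2g, Pik3ip1 and Irs2 were higher and Pik3cg was lower with SFPQ-ABL1. That is 4 of 10 called, beside 26.0% of all genes (13.2% higher and 12.8% lower). The lines of the fusions did not overlap for 4 of 10, beside 27.9% of all genes. The median log2 difference of the 10 genes was -0.175, 0.0684 and 0.229 for the BCR-ABL1 lines and then the SFPQ-ABL1 lines against MSCV, and last for SFPQ-ABL1 against BCR-ABL1. Over all genes tested it was -0.00812, -0.00191 and 0.00579.

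**Figure D1:**
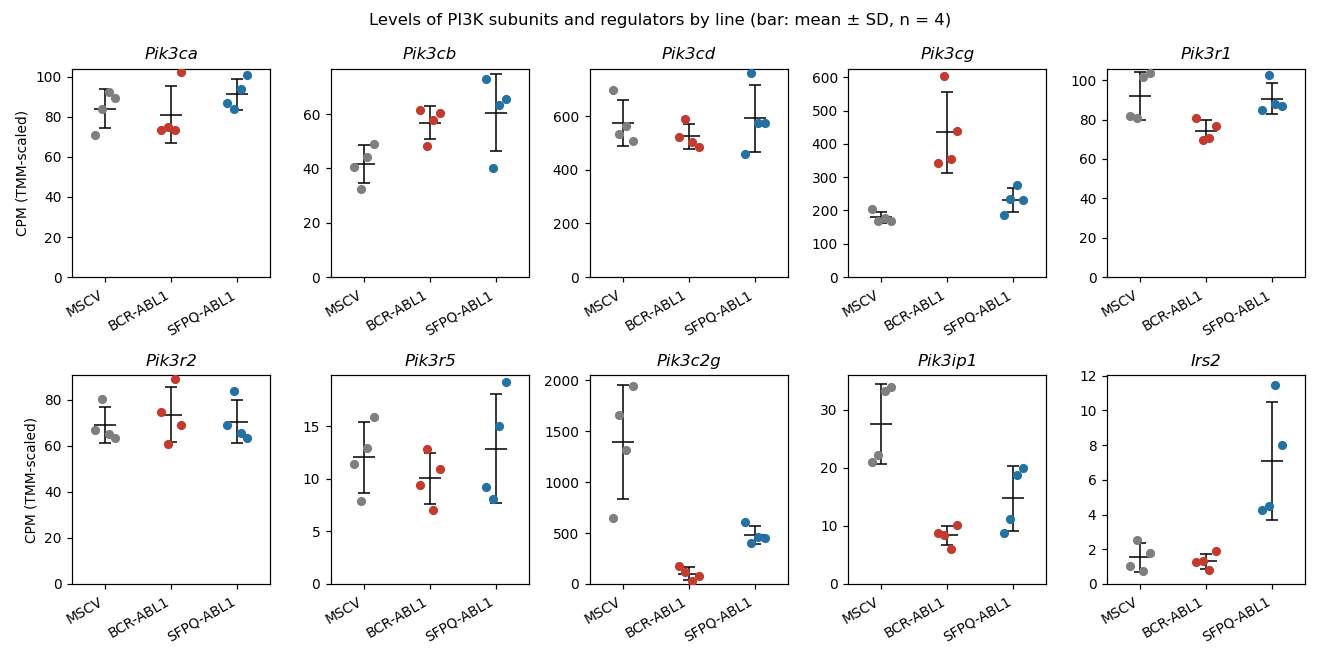
Each panel plots 1 gene, with the TMM-scaled CPM of each line as a point over its group on a linear axis from 0, and the mean ± SD of the 4 lines in black. The 4 MSCV lines lie above all BCR-ABL1 lines for Pik3c2g and Pik3ip1 and below them for Pik3cg, and the 4 SFPQ-ABL1 lines lie above all others for Irs2.

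**Figure D2:**
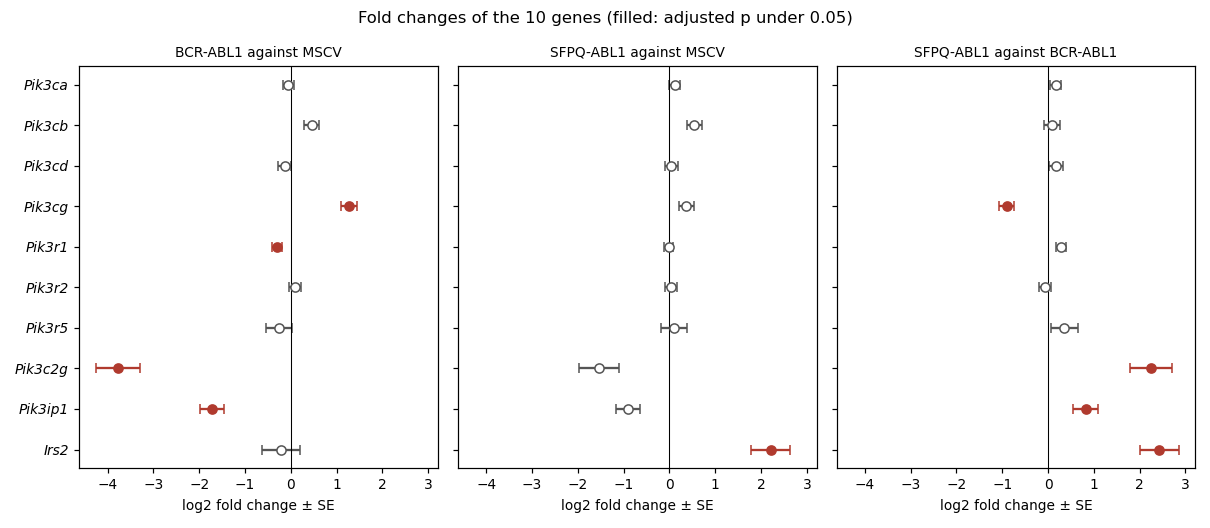
The log2 fold change ± SE of each of the 10 genes is plotted for the 3 comparisons, with filled red points where the adjusted p was under 0.05. Pik3c2g has the most negative value against MSCV in both fusion groups, -3.78 and -1.53, and only the first of these is filled.

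Among the class I catalytic subunits, Pik3cg was the gene that differed. It lies on chromosome 12 from base 32173473 to 32208659 (mm10, minus strand), and p110 gamma is a form that G protein-coupled receptors activate. Pik3cg was at 204, 170, 177 and 168 CPM in MSCV lines 1 to 4, at 342, 604, 354 and 438 in the BCR-ABL1 lines, and at 188, 234, 276 and 231 in the SFPQ-ABL1 lines. Every BCR-ABL1 line was above every line of the other groups, and the SFPQ-ABL1 and MSCV lines overlapped. The log2 difference was 1.27 ± 0.172 (SE) for BCR-ABL1 against MSCV (adjusted p = 0.000182) and fell by 0.90 ± 0.171 from BCR-ABL1 to SFPQ-ABL1 (adjusted p = 0.00231). SFPQ-ABL1 against MSCV gave 0.37, with a 95% interval of 0.00300 to 0.736 and an adjusted p of 0.265. In bulk RNA of a line, more cells of a kind and more RNA per cell cannot be told apart. Of 10 granulocyte and monocyte markers, 6 were tested and 3 of these fell with BCR-ABL1 against MSCV. Of all genes, 16.3% fell and 15.8% rose in that comparison. Mpo, Prtn3, Ms4a3 and Lyz2 passed 1 CPM in every group, as Elane did with SFPQ-ABL1, and the summed level was 444 to 1123 CPM in MSCV, 213 to 380 in BCR-ABL1 and 548 to 815 in SFPQ-ABL1 lines, with Ctsg and S100a8 at 0 in every MSCV and SFPQ-ABL1 line. Of 8 T and NK markers, the 3 tested all fell with BCR-ABL1: Tcf7 was 18.0-fold lower, Cd3g 7.99-fold and Cd3d 2.10-fold. Their summed level was 4.003 to 17.0 CPM in MSCV, 0.516 to 2.62 in BCR-ABL1 and 2.73 to 5.12 in SFPQ-ABL1 lines, with Cd8a and Ncr1 at 0 in every line. Of 9 mast cell and basophil markers, 4 were tested, and Cpa3 rose with BCR-ABL1, to 13.1 ± 19.5 CPM from 0.209 ± 0.165, while Ms4a2 and Cma1 fell. The summed level was 14.8 to 34.1 CPM in MSCV, 10.4 to 55.8 in BCR-ABL1 and 10.1 to 15.1 in SFPQ-ABL1 lines, with Prss34 and Tpsb2 at 0 in every line. The 3 tested pro-B markers fell as well, and 1 of 7 fibroblast markers was tested and was not called. With SFPQ-ABL1 against MSCV, Mpo rose 4.11-fold (adjusted p = 0.0488) and Cd79a was 1.61-fold lower (0.0191). Between the fusions, 4 of the 6 granulocyte and monocyte markers and all 3 pro-B and 3 T and NK markers tested were higher with SFPQ-ABL1. Of the 4 mast cell and basophil markers, 1 was higher and 1 lower. Of all genes, 13.2% were higher and 12.8% lower. The part of these markers in the results was not tested.

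The other 3 catalytic genes were not called in any comparison. Pik3cd (p110 delta; chromosome 4, 149649168 to 149702571) was at 699, 534, 563 and 507 CPM in the MSCV lines, 521, 591, 504 and 486 in the BCR-ABL1 lines and 459, 763, 574 and 573 in the SFPQ-ABL1 lines. The 3 groups overlapped throughout, and SFPQ-ABL1 line 2, one of the lines that stand apart, was the highest of all 12. The 95% intervals of its log2 difference were -0.45 to 0.18 for BCR-ABL1 against MSCV, -0.27 to 0.36 for SFPQ-ABL1 against MSCV and -0.14 to 0.49 between the fusions. Pik3ca (p110 alpha; chromosome 3, 32397671 to 32468486) was at 70.7 to 92.3 CPM in MSCV, 73.4 to 102 in BCR-ABL1 and 83.7 to 101 in SFPQ-ABL1 lines. The groups overlapped, with BCR-ABL1 line 4 far above the 3 others of its group, and without both lines that stand apart Pik3ca was called higher with SFPQ-ABL1 than with BCR-ABL1 (log2 difference 0.34, adjusted p = 0.0466, against 0.17 and 0.329 with all lines). Over 21 alternative settings that adjusted p ran from 0.0466 to 0.561.

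Pik3cb (p110 beta; chromosome 9, 99036654 to 99140621) was at 40.6, 32.4, 44.2 and 48.9 CPM in the MSCV lines, 61.6, 48.1, 57.7 and 60.2 in the BCR-ABL1 lines and 72.8, 40.2, 63.5 and 65.7 in the SFPQ-ABL1 lines. In each fusion group line 2 was the lowest and the only line inside the MSCV range. The log2 difference was 0.45 ± 0.170 for BCR-ABL1 (adjusted p = 0.057) and 0.54 ± 0.170 for SFPQ-ABL1 (adjusted p = 0.115), each against MSCV. Without SFPQ-ABL1 line 2 both passed the threshold, at adjusted p = 0.0157 and 0.0201, and without both lines that stand apart at 0.0391 and 0.0243. Leaving out MSCV line 4 or BCR-ABL1 line 2 gave 0.0460 and 0.0487 for BCR-ABL1, and the alternatives ran from 0.00427 to 0.133 for BCR-ABL1 and from 0.0192 to 0.299 for SFPQ-ABL1.

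CPM divided by the length of a gene's merged exons compares levels between genes. On that scale Pik3cd held 71.5% ± 2.47 (SD, n = 4) of the summed class I catalytic mRNA in MSCV lines, 55.4% ± 3.84 in BCR-ABL1 lines and 66.8% ± 4.94 in SFPQ-ABL1 lines. Pik3cg held 16.6% ± 0.352, 33.4% ± 4.83 and 19.7% ± 2.44 in the same order. Its share was 28.9% to 39.6% over the BCR-ABL1 lines and 16.2% to 22.8% over the 8 others. Pik3ca held 7.33%, 5.92% and 7.25%, and Pik3cb 4.54%, 5.30% and 6.22%. These shares are a description without a test, and they depend on the annotated exon lengths.

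**Figure D3:**
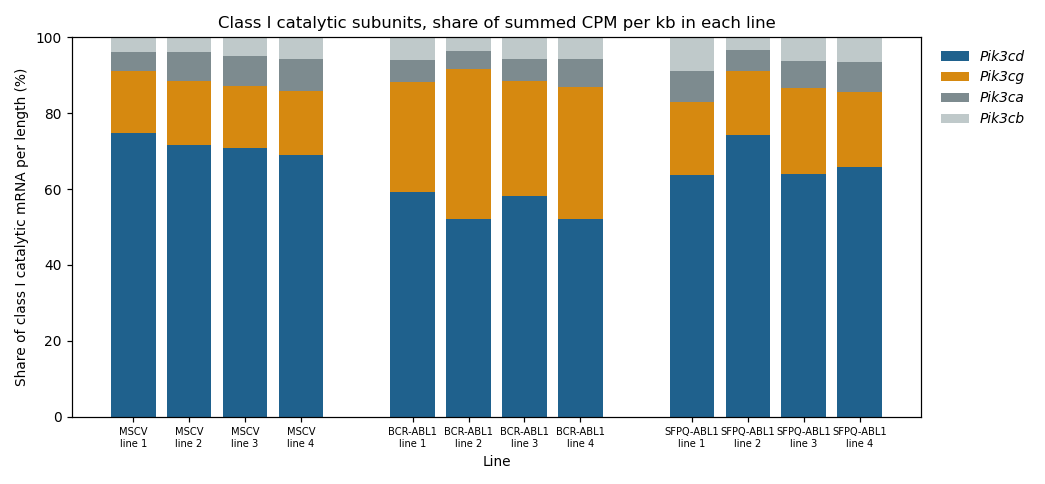
Each bar is 1 line, split into the share (%) that each of the 4 class I catalytic genes has of their summed CPM per kb. The orange Pik3cg part takes 28.9% to 39.6% in the BCR-ABL1 lines and 16.2% to 22.8% in the other lines.

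Of the regulatory subunits, Pik3r1 was called once and the others never. Pik3r1 (p85 alpha, which holds and stabilises p110 and binds phosphotyrosine; chromosome 13, 101680563 to 101768217, minus strand) was at 82.1, 80.8, 101 and 104 CPM in the MSCV lines, 80.8, 69.5, 70.5 and 76.8 in the BCR-ABL1 lines and 85.1, 103, 88.1 and 87.0 in the SFPQ-ABL1 lines. The BCR-ABL1 lines lay below all SFPQ-ABL1 lines, and BCR-ABL1 line 1 lay within the range of the MSCV lines. The log2 difference for BCR-ABL1 against MSCV fell by 0.31 ± 0.103 (adjusted p = 0.0379). Leaving out a single line ended that call for MSCV line 3 (adjusted p = 0.105), MSCV line 4 (0.112) and BCR-ABL1 lines 2 (0.0922), 3 (0.0977) and 4 (0.0619), as did a fit of only the 8 libraries compared (0.0521), the replicate number as a block (0.0514) and leaving out both lines that stand apart (0.0522), and over 21 alternatives the adjusted p ran from 0.0202 to 0.112. SFPQ-ABL1 was 0.29 ± 0.103 above BCR-ABL1 on the log2 scale (adjusted p = 0.0582), a difference that was called without MSCV line 2 (adjusted p = 0.0410) and ran from 0.0254 to 0.177 over the alternatives.

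Pik3r1 also has shorter forms that start at internal first exons and lack the front part of p85 alpha. The first exon of the long form (bases 101767977 to 101768217) held 45 counts over all lines in the exon table. The internal first exons of 448, 225 and 130 bases held 0, 1 and 0 counts over the 12 lines, while the exon of 449 bases that follows them held 59. Exon counts come to 18% of the gene counts, so counts of that size can miss low use of a start.

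Pik3r2 (p85 beta; chromosome 8, 70768176 to 70776713) was at 63.5 to 80.6 CPM in MSCV, 60.9 to 89.2 in BCR-ABL1 and 63.3 to 83.9 in SFPQ-ABL1 lines. Its groups overlapped, and the 95% intervals of the log2 difference were -0.18 to 0.37, -0.25 to 0.31 and -0.34 to 0.21 in the 3 comparisons. Pik3r5 (p101, the partner of p110 gamma; chromosome 11, 68432121 to 68497849) was at 7.89 to 15.9 CPM in MSCV, 7.06 to 12.9 in BCR-ABL1 and 8.09 to 19.2 in SFPQ-ABL1 lines. These groups overlapped as well, and BCR-ABL1 against MSCV gave a log2 difference of -0.26 (95% interval -0.88 to 0.36; adjusted p = 0.52). Pik3r6, which encodes p84, the other partner of p110 gamma, is no member of the group but fell 1.60-fold with BCR-ABL1, from 23.7 ± 4.26 CPM in MSCV to 14.8 ± 1.66 (adjusted p = 0.00273).

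Pik3c2g was the member with the widest range. It lies on chromosome 6 from base 139587221 to 139969284 (mm10, plus strand) and encodes the class II enzyme known mainly from liver. It was at 643, 1660, 1320 and 1942 CPM in MSCV lines 1 to 4, at 179, 119, 28.0 and 80.6 in the BCR-ABL1 lines and at 606, 407, 462 and 447 in the SFPQ-ABL1 lines. No 2 groups overlapped, although MSCV line 1 was close to the highest SFPQ-ABL1 line. The log2 difference was -3.78 ± 0.483 for BCR-ABL1 against MSCV (adjusted p = 0.000124), and SFPQ-ABL1 was 2.24 ± 0.453 above BCR-ABL1, or 4.73-fold (adjusted p = 0.00333). SFPQ-ABL1 against MSCV gave -1.53 ± 0.442 and was not called (adjusted p = 0.0935), except without BCR-ABL1 line 3 (0.0457), with no filter on low counts (0.0310) and with DESeq2 (0.0165), with a range of 0.0165 to 0.186 over the alternatives. Leaving out 1 line kept the first value between -4.20 and -3.47 and the second between 1.93 and 2.66. Hepatocyte markers were near 0: none of 9 was tested, Alb and Ahsg were at 0 in every line, and the summed level was 0 to 0.0755 CPM in MSCV, 0.0775 to 0.137 in BCR-ABL1 and 0.107 to 0.450 in SFPQ-ABL1 lines.

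The exon counts of Pik3c2g lay almost only on the later part of the gene. Its exons were reduced to 41 that do not overlap, and this split was seen in the exon counts and not chosen beforehand. The 22 exons before base 139841445, 3600 bases in all, held 3 counts over the 12 lines, all in MSCV line 3. The 19 exons from that base on, 9047 bases in all, held 105474 counts, with 326 to 25764 in a line. The earlier exons thus held 0.00284% of these exon counts (exact 95% interval 0.000587% to 0.00831%, counting error only). In MSCV line 2, the line with the most, the later exons held 25764 counts, against 123425 gene counts of Pik3c2g. The place of the other reads in the gene is not known. Exons of 100 to 200 bases gave the same picture: the 9 early ones had a median of 0 counts over all lines and the 8 later ones a median of 3241.5. Base 139841445 is the annotated start of the transcript Pik3c2g-211 in GENCODE and one of 2 starts that RefSeq gives for the gene. GENCODE lists Pik3c2g-211 as a processed transcript with 0 coding bases. The same holds for Pik3c2g-207 and Pik3c2g-208, which start at bases 139841503 and 139841581.

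The RefSeq windows (GRCm38.p6, 250 bases before to 50 after a start, plus strand) of both annotated starts are shown. They are given because almost all exon counts lie after the second start, with 3 between the starts. The first window, chr6:139613822-139614121, and the second, chr6:139841195-139841494, are in lower case, with capitals marking a match to the STAT motif TTCNNNGAA in the first and to the reverse complement of the TATA motif TATAAA in the second.

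Pik3c2g first start: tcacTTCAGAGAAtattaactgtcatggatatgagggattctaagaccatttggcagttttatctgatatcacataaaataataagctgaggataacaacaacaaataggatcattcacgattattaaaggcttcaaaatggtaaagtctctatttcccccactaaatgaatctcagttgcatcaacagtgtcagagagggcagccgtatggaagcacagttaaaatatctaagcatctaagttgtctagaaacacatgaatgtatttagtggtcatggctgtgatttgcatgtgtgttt

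Pik3c2g second start: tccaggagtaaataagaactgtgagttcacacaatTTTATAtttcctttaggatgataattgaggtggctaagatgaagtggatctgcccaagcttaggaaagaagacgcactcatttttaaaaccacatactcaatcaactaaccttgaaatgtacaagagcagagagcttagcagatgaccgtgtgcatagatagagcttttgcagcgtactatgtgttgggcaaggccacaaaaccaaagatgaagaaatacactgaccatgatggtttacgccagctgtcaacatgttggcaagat

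The STAT match begins at base 5 of the first window, and none was found in the second window. Almost no exon counts lay downstream of the first window until the second start. Across the 15 RefSeq windows of the 10 genes, all searched on both strands, TTCNNNGAA was found in 1, the FOXO motif GTAAACA in 1 (Pik3cg, base 159) and TATAAA in 2 (Pik3r1 and Pik3c2g, on the minus strand). Of all 32851 windows of 300 bases, 8.3%, 3.6% and 13.6% hold these motifs. A match describes the letters of the window only.

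The fall of Pik3c2g ran along all its covered exons. Over the 17 exons with at least 200 counts in the MSCV lines, the mean CPM was 11.5- to 33.4-fold lower in BCR-ABL1 lines (median 14.2-fold) and 2.28- to 4.92-fold lower in SFPQ-ABL1 lines (median 2.82-fold). The last exon, of 1494 bases, had 128 CPM in MSCV, 9.11 in BCR-ABL1 and 45.7 in SFPQ-ABL1 lines in exon counts relative to the library's gene total. Of the coding bases of Pik3c2g-203, which spans both parts, 63.8% lie from the internal start on. The first exon of Pik3c2g-203 had 0 counts over the 12 lines. The coding sequence of Pik3c2g-202, of 1959 bases, lies after the internal start entirely. Which annotated transcript the reads came from, and whether it is coding, was not tested.

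**Figure D4:**
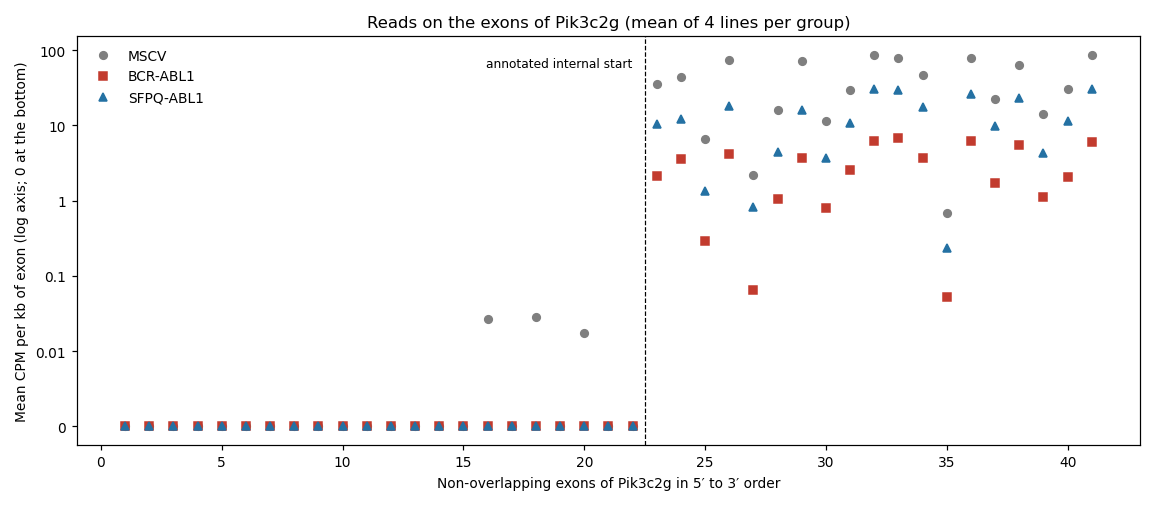
Each point is the mean of 4 lines for 1 exon, in CPM per kb of exon on a log axis with 0 drawn at the bottom, and the 41 exons stand in order with a dashed line at the annotated internal start. The 22 exons left of it are at or near 0 in all groups, and the 19 exons right of it run from MSCV at the top through SFPQ-ABL1 to BCR-ABL1.

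Exon usage, the share of a gene's reads on each exon, was tested with diffSpliceDGE. None of the 8 members with exons to test was called in any comparison, and none had an unadjusted Simes p under 0.05, the lowest being 0.265, 0.22 and 0.134 in the 3 comparisons. The gene-level F test called none either. Of 9875 genes tested, 0.192% were called for BCR-ABL1 against MSCV, 0.0608% for SFPQ-ABL1 against MSCV and 0.132% between the fusions. Pik3r5 and Irs2 had no exon with enough counts for this test. Only exons repeating the coordinates of another were left out, so overlapping exons that share reads were tested as separate exons. Exons with too few counts, such as the internal first exons of Pik3r1, were not part of it.

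Pik3ip1 encodes a membrane protein that binds p110 and lowers its activity (chromosome 11, 3330401 to 3342971, plus strand). It was at 20.98, 22.2, 33.2 and 33.8 CPM in the MSCV lines, 8.69, 8.47, 6.04 and 10.2 in the BCR-ABL1 lines and 8.86, 11.2, 18.8 and 20.03 in the SFPQ-ABL1 lines. All MSCV lines were above all lines of both fusions, and SFPQ-ABL1 line 1 lay within the BCR-ABL1 range with the other 3 above it. The log2 difference was -1.72 ± 0.268 for BCR-ABL1 against MSCV (adjusted p = 0.00046) and -0.90 ± 0.262 for SFPQ-ABL1 against MSCV, which was not called (adjusted p = 0.0954). It was called in 3 of the 21 alternatives, with no filter on low counts (0.0454), with DESeq2 (0.0164) and with the replicate number as a block (0.0359), over a range of 0.0164 to 0.224. SFPQ-ABL1 was 0.82 ± 0.264 above BCR-ABL1 (1.76-fold, adjusted p = 0.0363). This last call was lost without BCR-ABL1 line 1 (adjusted p = 0.0605), 2 (0.0745) or 3 (0.105) and without SFPQ-ABL1 line 3 (0.111) or 4 (0.112), and with limma-voom (0.0732), and the adjusted p ran from 0.0104 to 0.112 over the alternatives.

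Irs2 encodes an adaptor that insulin, IGF-1 and some cytokine receptors phosphorylate and that then binds p85 (chromosome 8, 10984681 to 11008458, minus strand). It was at 1.03, 2.54, 0.740 and 1.80 CPM in the MSCV lines, 1.25, 1.32, 0.805 and 1.87 in the BCR-ABL1 lines and 4.25, 4.52, 11.5 and 8.01 in the SFPQ-ABL1 lines. The gene counts behind these values were 56 to 189 in MSCV lines, 53 to 121 in BCR-ABL1 lines and 317 to 943 in SFPQ-ABL1 lines. All SFPQ-ABL1 lines were above all others, and the MSCV and BCR-ABL1 lines overlapped. The log2 difference of SFPQ-ABL1 was 2.21 ± 0.422 against MSCV (adjusted p = 0.0266) and 2.43 ± 0.427 against BCR-ABL1 (5.38-fold, adjusted p = 0.00152). Leaving out MSCV line 3 (adjusted p = 0.0742) or 4 (0.0656), or SFPQ-ABL1 line 3 (0.0648) or 4 (0.0632), ended the call against MSCV, as did a fit of only these 8 libraries (0.0596), over a range of 5.27e-06 to 0.0742. BCR-ABL1 against MSCV gave -0.22, with a 95% interval of -1.12 to 0.68.

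The exon table placed all reads of Irs2 on its last exon. Irs2 has 2 exons, and the first (bases 11004470 to 11008458) carries 3961 coding bases, 99.9% of the coding sequence, and 63.1% of the exon length. That exon had 0 counts in each of the 12 lines, where 3 counts over all lines is the limit a count of 0 allows. The second exon (10984681 to 10987014), of which 2 bases are coding, had 9, 10, 2 and 5 counts in the MSCV lines, 5, 5, 3 and 8 in the BCR-ABL1 lines and 27, 21, 49 and 37 in the SFPQ-ABL1 lines. The order of the groups on that exon was that of the gene counts. These are 181 of the 2905 counts that the gene table gives Irs2, and the place of the other reads in the gene is not given by the files. Among 3763 exons of at least 3000 bases in protein-coding genes with at least 100 counts on an exon, 45 (1.2%) were at 0 in all lines. The exon with 100 counts could be the long exon itself, which then cannot be at 0. That share is therefore no measure of how often a long first exon is empty. Whether the coding part of Irs2 was transcribed cannot be read from these counts. The values of Irs2 rest on reads whose place is known only for its last, nearly non-coding exon.

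The order of the 10 genes by CPM per kb of exon differed between groups. In MSCV lines Pik3c2g led with 110.02 ± 44.3, its lines overlapping those of Pik3cd at 92.0 ± 13.6, followed by Pik3cg at 21.3 ± 1.99 and Pik3r2 at 16.5 ± 1.87, neither of which overlapped a neighbour. Pik3ca (9.26) and Pik3r1 (9.12) overlapped each other, as did Pik3ip1 (6.45) and Pik3cb (5.77), and Pik3r5 (2.17) and Irs2 (0.242) came last. In BCR-ABL1 lines Pik3cd (84.0 ± 7.38) led, Pik3cg (51.6 ± 14.3) was next, and Pik3c2g (8.03 ± 5.02) had moved between Pik3ca and Pik3cb, overlapping both. In SFPQ-ABL1 lines Pik3cd (94.6 ± 20.1) was followed by Pik3c2g (38.0 ± 6.85), which overlapped Pik3cg (27.6 ± 4.30), and Irs2 (1.12 ± 0.538) overlapped Pik3r5 at the foot of the order. Divided by only the length of the exons from the internal start, the gene CPM of Pik3c2g gave 154 ± 61.9 CPM per kb in MSCV. It gave 11.2 ± 7.02 in BCR-ABL1 and 53.1 ± 9.58 in SFPQ-ABL1 lines. These values take all reads of the gene as lying on those exons, which the exon counts cannot show.

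Genes whose pattern over the 12 lines was most like 3 of the members were ranked by Pearson correlation of log2 CPM among 12095 protein-coding genes, as a description in which the 3 groups account for part of every correlation. For Pik3c2g these were Cxcr4 (0.958), the chemokine receptor gene, Pfdn5 (0.958), Frg1 (0.956), P2rx6 (0.955) and Mgst3 (0.955). For Pik3ip1 they were Klhl24 (0.983), the inositol phosphatase gene Inpp5j (0.975), Zfyve1 (0.975), Cacng7 (0.967) and the integrin gene Itgb7 (0.964). For Irs2 they were Zkscan1 (0.919), Hecw1 (0.909), Smim5 (0.902), Nlrp6 (0.896) and Zadh2 (0.887).

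The rest of the pathway was read from lists of other PI3K genes. Over all genes tested, 32.1% were called for BCR-ABL1 against MSCV, 1.79% for SFPQ-ABL1 against MSCV and 26.0% between the fusions, with medians near 0 as given above. Of the 13 other subunits and adaptors, 11 were tested, and 1 rose and 4 fell with BCR-ABL1 against MSCV, beside 15.8% and 16.3% of all genes (median log2 difference -0.0726 against -0.00812 over all genes). Pik3r3, the gene of the p55 gamma regulatory subunit, rose 3.31-fold, from 0.801 ± 0.243 to 2.65 ± 0.606 CPM (adjusted p = 0.000883). Beside Pik3r6, Pik3r4, the gene of the class III regulatory subunit, was 1.24-fold lower (adjusted p = 0.0158). With SFPQ-ABL1 against MSCV, 1 of the 11 rose, the adaptor gene Gab3, from 3.96 ± 0.753 to 11.03 ± 4.28 CPM (2.78-fold, adjusted p = 0.0488). Between the fusions 3 were higher and 2 lower with SFPQ-ABL1, led by Gab3 (6.02-fold higher, adjusted p = 0.00038), Pik3r3 (3.89-fold lower, adjusted p = 0.000682) and Pik3r6 (1.62-fold higher, adjusted p = 0.00327).

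Of 11 PIP3 and PIP2 phosphatases, all tested, 2 rose and 4 fell with BCR-ABL1, beside 15.8% and 16.3% of all genes (median log2 difference -0.341 against -0.00812). The 5-phosphatase gene Inpp5k went from 87.7 ± 8.61 CPM in MSCV to 39.2 ± 5.25 (2.24-fold lower, adjusted p = 1.97e-05). Inpp5d, the gene of SHIP1, went from 233 ± 14.6 to 141 ± 14.5 (1.66-fold lower, adjusted p = 0.000468), and Inpp5j was 1.95-fold lower (adjusted p = 0.000637). With SFPQ-ABL1 against MSCV none rose and 1 fell, beside 0.814% and 0.977% of all genes. That was Inpp5k, at 61.6 ± 4.69 CPM (1.42-fold lower, adjusted p = 0.0351). Between the fusions 3 were higher and 1 lower with SFPQ-ABL1, beside 13.2% and 12.8% of all genes. Inpp5k was 1.57-fold higher, Inpp5d 1.28-fold higher, and the 4-phosphatase gene Inpp4b 3.90-fold lower, at 12.5 ± 6.78 against 49.0 ± 22.8 CPM.

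Downstream of PIP3, 11 of 14 AKT genes and direct regulators were tested, and 1 rose and none fell with BCR-ABL1, 1 of 11 called beside 32.1% of all genes (median log2 difference 0.137). That was Trib3, a pseudokinase gene whose product binds AKT, at 349 ± 136 CPM against 27.0 ± 9.35 in MSCV (12.9-fold, adjusted p = 2.71e-05). With SFPQ-ABL1 against MSCV 1 rose, the kinase gene Sgk3 (1.48-fold, adjusted p = 0.0459), beside 0.814% of all genes. Between the fusions 1 was higher and 3 were lower, beside 13.2% and 12.8% of all genes. Trib3 was 9.75-fold lower with SFPQ-ABL1 than with BCR-ABL1 (adjusted p = 0.000104), Sgk3 1.65-fold higher (0.00176), and Phlpp1, the gene of a phosphatase that acts on AKT, 1.27-fold lower (0.0169). Of 16 mTOR genes tested out of 18, 3 rose and 2 fell with BCR-ABL1 (median log2 difference 0.0637). That is 5 of 16 called, near the 32.1% of all genes. Eif4ebp1, the gene of a translation repressor that mTOR phosphorylates, rose 2.28-fold, from 63.5 ± 5.15 to 145 ± 19.4 CPM (adjusted p = 1.88e-05). Rheb, the gene of the GTPase that activates mTOR, rose 1.43-fold and Eif4ebp2 was 1.34-fold lower. None of the 16 was called with SFPQ-ABL1 against MSCV by edgeR, DESeq2 or limma-voom, and 2 had an unadjusted edgeR p under 0.05. Between the fusions 2 were higher and 2 lower, beside 13.2% and 12.8% of all genes. Eif4ebp1 was 2.23-fold lower with SFPQ-ABL1, Rheb 1.28-fold lower, and Tsc2, the gene of a brake on mTOR, 1.33-fold higher.

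Of 16 PIP3-binding effectors, 1 rose and 2 fell with BCR-ABL1 (median log2 difference 0.0417), and 1 was higher and 2 lower between the fusions. These are 3 of 16 called in each comparison, beside 32.1% and 26.0% of all genes. With SFPQ-ABL1 against MSCV none was called by edgeR, DESeq2 or limma-voom, and 2 had an unadjusted edgeR p under 0.05. The adaptor gene Dapp1 went from 411 ± 59.8 CPM in MSCV to 226 ± 18.2 in BCR-ABL1 lines (1.82-fold lower, adjusted p = 0.000123) and was 392 ± 22.3 in SFPQ-ABL1 lines. Plekha1 was the one that rose, at 1.53 ± 1.96 CPM in BCR-ABL1 lines, an SD above the mean, against 0.0129 ± 0.0149 in MSCV and 0.0249 ± 0.0320 in SFPQ-ABL1 lines, and Cyth1 was 1.21-fold lower with BCR-ABL1 than with MSCV. Between the fusions Plcg2 was 1.28-fold lower with SFPQ-ABL1 (adjusted p = 0.0388). Of 6 class III complex genes, 1 rose and 1 fell with BCR-ABL1 (2 of 6 called beside 32.1% of all genes; median log2 difference 0.136), Uvrag 1.22-fold higher and Atg14 1.56-fold lower. No class III gene was called with SFPQ-ABL1 against MSCV by any of the 3 tools or had an unadjusted edgeR p under 0.05, and Atg14 was higher with SFPQ-ABL1 than with BCR-ABL1 (1.34-fold, adjusted p = 0.0338).

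**Figure D5:**
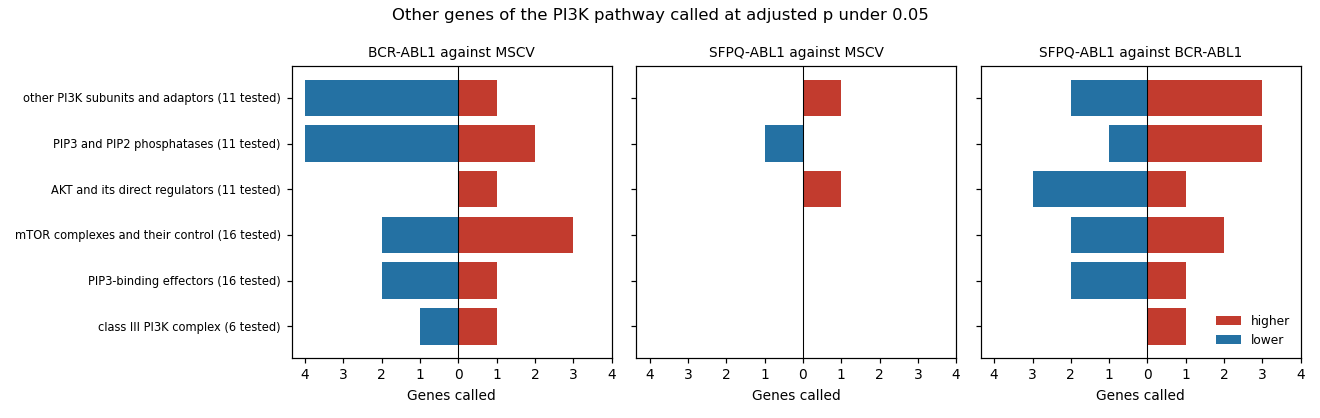
For 6 lists of other PI3K pathway genes, bars to the right count genes called higher and bars to the left genes called lower in the first-named group of each comparison. Against MSCV, between 1 and 6 genes of a list are called with BCR-ABL1 and at most 1 with SFPQ-ABL1.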

How the data were processed

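RNA sequencing measured 12 Ba/F3 lines, 4 per group. The submitters' processing notes name Subread, featureCounts and the build mm10. The sources used here give no version, annotation release, strand setting or rule for reads that match several places, so overlapping and antisense genes may share reads. The deposited values are raw counts of reads, 1 table by Ensembl gene and 1 by exon, without normalization by the authors. The exon counts total 18% of the gene counts, and how that subset was made is not described.

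Symbols and coordinates came from GENCODE M21 (55230 of 55471 genes matched), and windows around starts from RefSeq. The analysis used edgeR 4.0.16 under R 4.3.3. Genes were filtered with filterByExpr and scaled by TMM. The two-sided quasi-likelihood test used the 12 libraries together, with no term but the group, and p-values were adjusted by Benjamini-Hochberg over 17197 genes. Gene CPM are TMM-scaled, and exon CPM are relative to the gene total of the library. For exon usage, diffSpliceDGE ran on 119209 exons. Both tests were checked on simulated data. DESeq2 1.42.0 and limma 3.58.1 (voom) were alternatives, beside other scalings, filters and left-out lines. Leaving out both lines that stand apart was chosen after seeing the data.

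The labels call the lines of a group independent. The p-values of the edgeR test set a group difference against the spread between lines, estimated over all groups together and with help from other genes. The 18 pairs of replicates differed by a chi-square of 33.1 to 182 per degree of freedom, so all counted as separate libraries. Such values cannot tell independent lines from separate preparations of the same line. Intervals made from counts cover counting error only.

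The members and lists were chosen with earlier results of these data known. All 10 members are named in every comparison. Of each pathway list up to 3 called genes with the smallest adjusted p are named, and for Pik3c2g, Pik3ip1 and Irs2 the 5 protein-coding genes with the highest correlation. The first exon of Irs2, the split of Pik3c2g and the long exons at 0 were looked at after their values were seen.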

Additional observations from a re-analysis of the deposited data

Results flagged for a closer look

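One line stood far from the others of its group among the 30 sets of 4 lines, 1 for each gene and group, and about 1 such set in 20 is picked out by chance. Pik3ca was at 102 CPM in BCR-ABL1 line 4 and at 73.4 to 75.1 CPM in the 3 other BCR-ABL1 lines. The same line had the highest Abl1 exon 9 and Sfpq exon 9 of its group, and the part of that in the level of Pik3ca was not tested.

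For 4 genes the fusions differed from each other in the direct edgeR test. The log2 difference of SFPQ-ABL1 against BCR-ABL1 was -0.90 for Pik3cg, 2.24 for Pik3c2g, 0.82 for Pik3ip1 and 2.43 for Irs2. The exon counts give 2 further values to look at again. Pik3c2g had 3 of its counts before the internal start and 105474 after it, and the first exon of Irs2, with 99.9% of its coding bases, had 0 counts in all 12 lines.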

How the results depend on the processing

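Of 630 values of single genes under 21 alternatives, 572 kept their direction and side of the threshold, 19 lost the call, 21 gained it and 18 turned direction. Every reversed value had an adjusted p of at least 0.687 there and at least 0.41 in the reported fit. The count of members called with BCR-ABL1 against MSCV stayed between 3 and 5, as did that between the fusions, and exon usage called 0 members throughout. For SFPQ-ABL1 against MSCV the reported count was 1. It was 3 without a filter on low counts, 4 with DESeq2, 0 in a fit of only the 8 libraries compared, 2 without both lines that stand apart, and 0 to 2 when 1 line was left out; the cause was not tested. Values turned to 0.034 (Pik3r1, SFPQ-ABL1 against MSCV) and 0.0067 (Pik3r2, between the fusions) without normalization factors. Without both lines that stand apart they turned to -0.10 (Pik3cd) and -0.064 (Pik3r2) for SFPQ-ABL1 against MSCV and -0.010 (Pik3cd) between the fusions. With 1 line left out, the ranges that crossed 0 were -0.45 to 0.15 (Irs2) and -0.015 to 0.18 (Pik3r2) for BCR-ABL1 against MSCV. For SFPQ-ABL1 against MSCV they were -0.090 to 0.042 (Pik3r1), -0.16 to 0.26 (Pik3r5), -0.11 to 0.16 (Pik3cd) and -0.071 to 0.12 (Pik3r2), and between the fusions -0.16 to 0.046 (Pik3r2) and -0.010 to 0.24 (Pik3cb).

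The replicate block gave 3 members for SFPQ-ABL1 against MSCV. It added Pik3cb and Pik3ip1 there, added Pik3cb and lost Pik3r1 (adjusted p = 0.0514) for BCR-ABL1 against MSCV, and changed no other call. Whether replicate numbers pair the lines is not settled, and the reported fit has no term for them. Deviations of lines with the same number correlated between -0.00632 and 0.385, over 0.1 in 7 of 12 pairs. In 6 of the 12 the first group's line correlated best with its own number. Lines numbered 4 did so in all 3 comparisons (0.268, 0.385 and 0.346). Depth limits what can be said of exons of few counts, such as the starts of Pik3r1.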
